A study of Mus musculus with 8 samples.

Results

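Microbial products are sensed by Toll-like receptors (TLRs), by their accessory proteins and by cytosolic receptors, and 10 genes of this system were followed through bone marrow progenitors: Tlr1, Tlr2, Tlr4, Tlr7, Tlr9, Cd14, Ly96, Ly86, Myd88 and Nod1. They were taken by name and not by a cut on their values, though with earlier results of these data known. They are 10 of the 27998 genes in the table. The cells were KL cells of B6 mice, female and 3 to 4 months old, which carry CD117 (c-Kit) and lack CD3, CD4, CD8, CD45R, CD11b, TER119 and GR1. SPF mice stayed in a specific pathogen-free facility, and CVT mice had spent 1 month in a conventional facility, co-housed with conventionally born mice. Each group was sequenced as 4 pools of 2 or 3 mice, 10 mice a group, so no value belongs to a single mouse. Single cells were captured in droplets, and unique molecular identifiers (UMIs) were counted, so that amplified copies of 1 transcript count once.

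TLRs are membrane proteins that bind conserved microbial molecules and, apart from TLR3, signal through the adaptor MyD88 to NF-kB. TLR2, paired with TLR1, binds bacterial lipopeptides at the cell surface. TLR4 binds lipopolysaccharide together with MD-2, the product of Ly96, after CD14 has handed it over. TLR7 and TLR9 sit in endosomes and bind RNA and unmethylated DNA. MD-1, the product of Ly86, is the partner of the TLR-like protein CD180, and NOD1 is a cytosolic receptor for peptidoglycan fragments. Stem and progenitor cells are known to carry several of these receptors.

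Promoter sequence is shown for Nod1 and Ly86, whose leading class was above the next in 8 of 8 pools, and for Tlr1, which holds a motif searched for. The table of RefSeq promoters (build GRCm38.p6) held 8 start sites of 6 members, Tlr1, Tlr2, Tlr9, Ly86, Myd88 and Nod1. Tlr4, Tlr7, Cd14 and Ly96 were not matched. The bases before the start that lie outside the annotated gene are given 5′ to 3′ on the strand of the gene, with capitals for the PU.1 core GAGGAA or its reverse TTCCTC. Nod1 is chr6:54972613-54972862 on the minus strand, Ly86 is chr13:37345095-37345207 on the plus strand, and Tlr1 is chr5:64933564-64933808 on the minus strand.
Nod1: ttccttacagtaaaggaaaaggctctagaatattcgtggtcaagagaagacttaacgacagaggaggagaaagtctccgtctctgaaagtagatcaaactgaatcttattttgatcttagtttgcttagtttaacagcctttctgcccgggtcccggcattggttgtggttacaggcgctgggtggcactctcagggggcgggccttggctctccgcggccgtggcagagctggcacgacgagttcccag
Ly86: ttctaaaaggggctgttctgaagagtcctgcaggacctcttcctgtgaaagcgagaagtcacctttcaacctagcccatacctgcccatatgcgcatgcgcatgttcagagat
Tlr1: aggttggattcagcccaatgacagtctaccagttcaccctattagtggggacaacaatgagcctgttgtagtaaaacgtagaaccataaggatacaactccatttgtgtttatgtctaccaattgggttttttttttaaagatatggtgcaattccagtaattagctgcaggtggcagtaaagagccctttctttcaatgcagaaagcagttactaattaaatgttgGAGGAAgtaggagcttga
The core was found in the 250 bases before 2 of the 8 starts, 1 of Tlr1 and that of Tlr9, and it is present in 23.1% of the 27025 promoters of all genes. A C/EBP motif written TTGCNNAA, read on both strands, was in none of the 8 starts and in 9.55% of all promoters. Neither count says whether a factor binds there.

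The table held 29891 cells, 17560 from CVT and 12331 from SPF mice, with 1888 to 4845 cells and 19041749 to 59812346 UMIs in a pool and 2759 to 49732 UMIs in a cell. Cells were given to pools by matching the number after each barcode to the number in the sample descriptions, and each housing comparison rests on that match. Of the barcodes, 522 occurred in more than 1 pool, and 5.21% of such pairs of cells fell in the same cluster against 4.47% from the cluster sizes. Clustering without the members and their pathway genes gave 34 clusters, of which all but 4 were named from markers. Long-term stem cells (LTHSC), multipotent (MPP), lymphoid-primed (LMPP), common myeloid (CMP), granulocyte-macrophage (GMP) and megakaryocyte-erythroid (MEP) progenitors, and megakaryocyte-, basophil and mast-, monocyte- and late granulocyte-like cells had at least 20 cells in every pool. The unnamed clusters held 2470 cells. The largest, cluster 4 with 1727 cells, carried Hlf, Mecom and Procr and tied between LTHSC and MPP. LTHSC-like cells are therefore 1 cluster of 1058 cells, without cluster 4. Late granulocyte-like cells were found in spite of the sort against GR1 and CD11b. Leading genes were Ly6g, Ngp and S100a8 in cluster 18, Camp, Ngp and S100a8 in cluster 25, and Retnlg and Mmp8 in cluster 28. Most monocyte-like cells were in clusters 6 and 17, of 1561 and 835 cells, led by genes such as Irf8 and F13a1. Cluster 23, of 590 cells, was led by S100a4, Fn1 and Ccr2. The names come from markers and do not say how mature the cells are. Levels are CPM, the UMIs of a gene per 1000000 UMIs of a class in a pool. They come from transcript ends and were not divided by length, so that a gene is compared across cells and not with another gene. Cells were clustered on their own transcripts, and differences between classes are a description without a test.

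The members lie apart in the genome, in the GENCODE M21 annotation of GRCm38. Tlr1 spans chr5:64924679-64933563, Tlr2 chr3:83836272-83841767, Tlr4 chr4:66827584-66930284, Tlr7 chrX:167304929-167330558 and Tlr9 chr9:106222598-106226883. Cd14 spans chr18:36725067-36726798, Ly96 chr1:16688051-16709611, Ly86 chr13:37345208-37419036, Myd88 chr9:119335934-119341411 and Nod1 chr6:54923949-54972612. Tlr1 is close in sequence to its neighbour Tlr6, and how the counting treated reads that match both is not given in the sources used here.

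Ly86 was highest, of the 10 classes, in monocyte-like cells. In monocyte-like cells its level in pools 1 to 8 was 260.0, 204, 194, 157, 231, 219.8, 249 and 213 CPM, a mean of 216 ± 32.3 (SD, n = 8). GMP-like cells were next with 121 ± 15.5 CPM, followed by LMPP-like cells with 22.3 ± 4.69 and late granulocyte-like cells with 10.8 ± 3.49. Each of the first 3 steps in this order held in 8 of 8 pools, and late granulocyte-like cells were above MPP-like cells (7.59 ± 1.07 CPM) in 7 of 8. From LTHSC-like cells (2.33 ± 2.46 CPM) down to MEP-like cells (1.22 ± 0.533 CPM) the neighbours were not separated in all pools. With every cell thinned to 2759 UMIs, a Ly86 UMI was found in 44.2% ± 6.20 of monocyte-like and 0.312% ± 0.270 of MEP-like cells, against 82.8% and 1.85% without thinning, at median depths of 13869.5 and 14142 UMIs. MEP-like cells are shown as the class with the lowest mean. Whether their UMIs come from free RNA, doublets or the cells themselves was not tested. The 80 dendritic-like cells, too few to compare by housing, had 452 ± 174 CPM.

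Ly86 also divided the GMP-like cells. Its mean was 186 ± 29.998 CPM in cluster 8 and 24.0 ± 4.49 in cluster 15, and both clusters were led by the neutrophil protease gene Elane. Cluster 15 also carried Gfi1, a repressor needed for neutrophil formation, among its markers, and cluster 8 was led by Ly6c2 and F13a1 as well. Among monocyte-like cells cluster 23, with Fn1, Ccr2 and Lyz2, had 302 ± 36.3 CPM. In the late granulocyte-like clusters 18 and 25 Ly86 was at 3.08 ± 2.0 and 7.72 ± 7.0 CPM, and in cluster 28 at 40.4 ± 30.4.

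Nod1 was highest in the granulocyte clusters. In late granulocyte-like cells of pools 1 to 8 it was at 42.6, 41.5, 33.2, 31.9, 25.1, 28.3, 35.0 and 27.7 CPM, with a mean of 33.2 ± 6.33. GMP-like cells followed with 4.72 ± 0.623 CPM, below in 8 of 8 pools, and then monocyte-like (3.93 ± 1.67) and LTHSC-like cells (3.85 ± 2.34), whose order held in 6 of 8. MEP-like cells were lowest, with 0.353 ± 0.184 CPM. After thinning, 10.7% ± 2.55 of late granulocyte-like and 0.118% ± 0.15 of MEP-like cells had a Nod1 UMI, against 21.9% and 0.634% without thinning, at median depths of 6958 and 14142 UMIs. Between clusters, Nod1 was at 9.29 ± 2.78 CPM in the GMP-like cluster 15, 27.2 ± 8.15 in cluster 25 and 53.5 ± 10.3 in cluster 18, which was led by Ltf, Retnlg and Ly6g. It was at 11.7 ± 9.08 CPM in cluster 28, led by Mmp9, Il1b and Cxcr2.

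**Figure D1:**
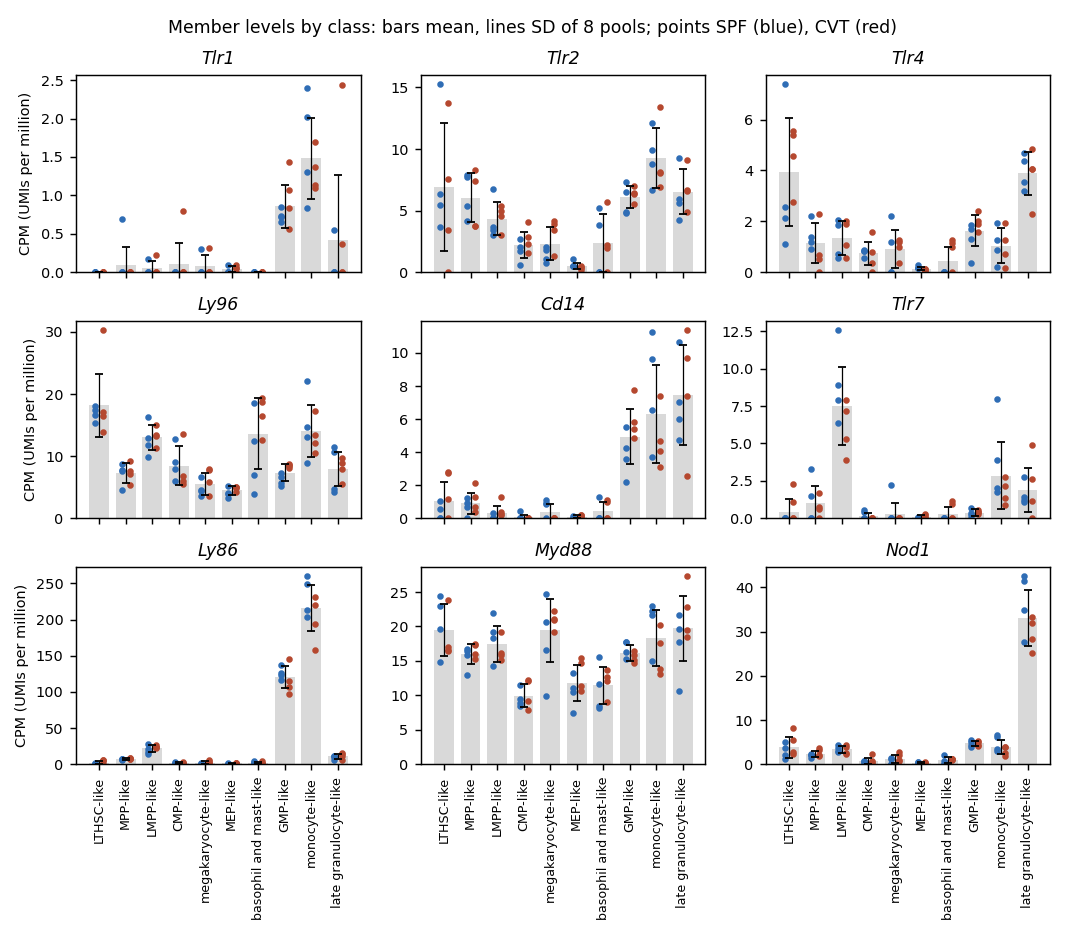
CPM of 9 members (Tlr9 is left out, with 10 UMIs in all cells) in 10 classes of KL cells. Bars and lines are means and SD of 8 pools and points are pools, SPF in blue and CVT in red. Ly86 was highest in monocyte-like cells (216 CPM), Nod1 in late granulocyte-like cells (33.2 CPM) and Tlr7 in LMPP-like cells (7.50 CPM), while Myd88 was between 9.97 and 19.7 CPM in every class.

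**Figure D2:**
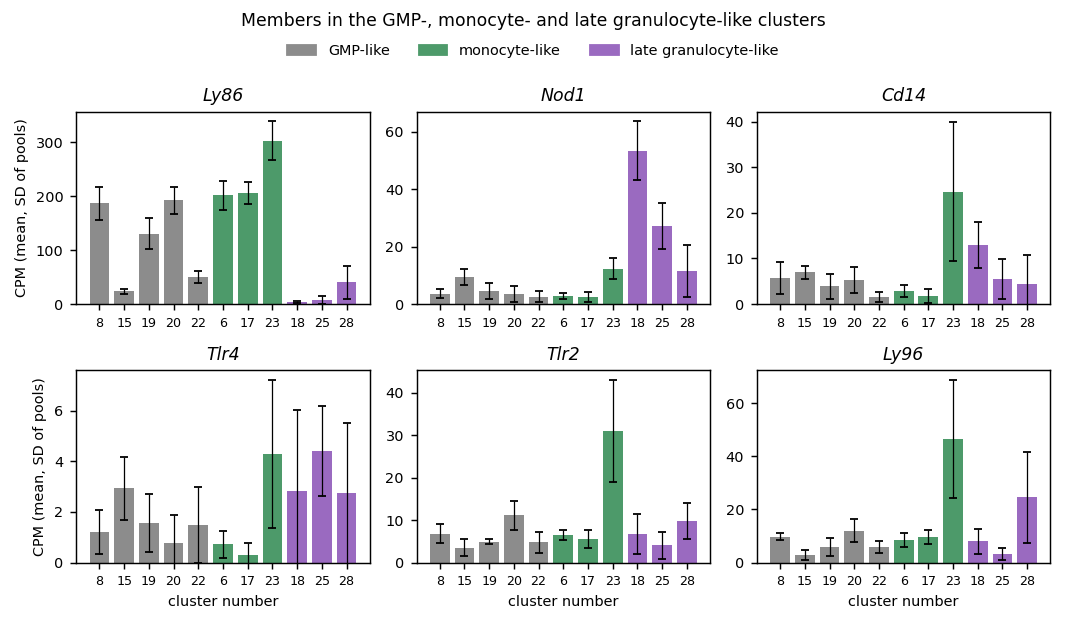
CPM of 6 members in the clusters of GMP-like (grey), monocyte-like (green) and late granulocyte-like cells (purple), as mean and SD of the pools, with the lower part of a line not drawn below 0. Ly86 falls to 24.0 CPM in cluster 15 and 3.08 in cluster 18, where Nod1 is at 9.29 and 53.5 CPM.

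The lipopolysaccharide receptor genes did not share 1 pattern. Tlr4 was at 3.93 ± 2.13 CPM in LTHSC-like cells, from 21 UMIs, and at 3.88 ± 0.853 in late granulocyte-like cells. The order of these 2 classes held in 5 of 8 pools, and late granulocyte-like cells were above GMP-like cells (1.64 ± 0.608 CPM) in 8 of 8. MEP-like cells had 0.140 ± 0.0692 CPM. Ly96, for MD-2, was highest in LTHSC-like cells with 18.2 ± 5.08 CPM, above monocyte-like cells (14.0 ± 4.18) in 7 of 8 pools. Basophil and mast-like cells (13.6 ± 5.76 CPM) and LMPP-like cells (13 ± 2.05) were not separated from monocyte-like cells in all pools, and MEP-like cells were lowest with 4.46 ± 0.690. After thinning, 4.67% ± 2.11 of LTHSC-like and 1.11% ± 0.605 of MEP-like cells had an Ly96 UMI, against 10.4% and 7.46% without thinning, at median depths of 5419 and 14142 UMIs. Cd14 was at 7.44 ± 3.03, 6.29 ± 2.97 and 4.93 ± 1.66 CPM in late granulocyte-, monocyte- and GMP-like cells, an order that held in 4 of 8 pools at each step. It was at 1.03 ± 1.16 CPM in LTHSC-like cells, below GMP-like cells in 8 of 8 pools. MPP-like cells had 0.908 ± 0.644 CPM and LMPP-like cells 0.302 ± 0.430. The leading class of Ly96 was not stable. With thinned cells, or with the members kept in the clustering, monocyte-like cells led with 21.2 and 18.96 CPM. Tlr4 was led by late granulocyte-like cells (3.69 to 3.88 CPM) in each of 4 alternatives, and Cd14 by monocyte-like cells in 3 of 4. At resolution 1, with 2878 LTHSC-like cells, Tlr4 was at 2.39 ± 1.21 CPM in that class. Tlr4 and Ly96 were found in the same cell in 17 GMP-like cells, against 14.6 from the product of their shares, in 3 monocyte-like cells, against 7.25, and in 1 LTHSC-like cell, against 2.16. Cells were not thinned for these counts, and the part of depth and cluster mix in them was not tested.

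The lipopeptide receptor Tlr2 was at 9.25 ± 2.44 CPM in monocyte-like cells, and the classes from LTHSC-like (6.94 ± 5.21) to MPP-like cells (6.04 ± 1.98) were not separated in all pools. CMP-like cells (2.21 ± 1.03 CPM) were above MEP-like cells (0.507 ± 0.269) in 8 of 8. Its partner Tlr1 had 141 UMIs in all cells, with 1.48 ± 0.524 CPM in monocyte-like and 0.856 ± 0.278 in GMP-like cells. It had 0 UMIs in 1058 LTHSC-like cells, which allows up to 0.284% of cells with a UMI. The monocyte-like cluster 23 held 31.01 ± 12.04 CPM of Tlr2, 24.7 ± 15.3 of Cd14 and 46.6 ± 22.2 of Ly96.

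The endosomal receptor Tlr7 was highest, of the 10 classes, in LMPP-like cells. Its level there in pools 1 to 8 was 7.91, 6.35, 7.89, 3.90, 7.16, 5.30, 12.6 and 8.90 CPM, a mean of 7.50 ± 2.59. Monocyte-like cells followed with 2.84 ± 2.25 CPM, lower in 8 of 8 pools, and MEP-like cells had 0.0826 ± 0.104. Between LMPP-like clusters it ranged from 3.93 CPM in cluster 16, led by mitosis genes, to 14.6 in cluster 11, led by Wfdc17 and Ly6a, and the dendritic-like cells had 32.2 CPM. Tlr9 had 10 UMIs in all cells, with 0 in 4141 GMP-like cells, which allows up to 0.0725%. The adaptor Myd88 was found in every class, from 9.97 ± 1.70 CPM in CMP-like to 19.7 ± 4.76 in late granulocyte-like cells. MEP-like cells (11.8 ± 2.57) were below MPP-like cells (16.0 ± 1.44) in 8 of 8 pools. Late granulocyte-like cells were above LTHSC-like cells (19.5 ± 3.79) in 5 of 8, and the leading class was not stable. LTHSC-like cells led at resolution 1 and with filtered cells. Monocyte-like cells led with thinned cells or with the members kept in the clustering. Myd88 was at 43.5 ± 12.02 CPM in cluster 23.

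The likeness of other genes was measured as Pearson's r of log2(CPM + 1) over 33 clusters of at least 50 cells. The clusters share libraries, and r is a description. The most alike to Ly86 were Irf8 (r = 0.96), Hpse (0.96) and Tifab (0.95), and to Nod1 Itgam (0.95), Pglyrp1 (0.91) and Prdx5 (0.91). To Tlr7 they were Ctnnd2, Card6 and Gm14161 (0.91 to 0.88), and to Ly96 Kctd12b, Stat6 and Dazap2 (0.87 to 0.86). Cd14 was most like Atp6v0b, Gdpd3 and AI839979 (0.93 to 0.91), and Tlr2 most like Acox3, Prkcd and Soat1 (0.92 to 0.91). Tlr1 was most like Abca9, Mnda and Nostrin (0.89 to 0.84), and Myd88 most like Vhl, Prr5l and Sh3bp2 (0.81 to 0.79). Tlr4 was most like Lrrk2 (0.88), Ebi3 (0.85) and, of the members, Nod1 (0.85), while Tlr1 and Tlr7 were the least alike pair of the 9 members compared (0.15).

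The next comparison asked whether the members differed between CVT and SPF mice, with the summed counts of each pool in edgeR's quasi-likelihood test and Benjamini-Hochberg adjustment over all genes tested. In all KL cells 9 of the 10 members could be tested, Tlr9 being too low, and 0 were called at an adjusted p of 0.05, against 0 of 13092 genes (0.0%). By DESeq2, 28 genes were called higher and 2 lower in CVT mice, with 0 members among them. At an unadjusted p under 0.05 there were 0 members, against 392 genes higher (2.99%) and 529 lower (4.04%) in CVT mice. In sums over all KL cells, fewer cells of a class and less RNA per cell cannot be told apart. The CVT and SPF pools overlapped for 10 of 10 members, whereas 118 genes (0.901%) had all CVT pools above and 688 (5.26%) all below the SPF pools.

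The levels in KL cells show how little separated the groups. Tlr7 was at 1.52, 1.32, 3.43 and 1.68 CPM in SPF pools 1, 2, 7 and 8, and at 1.15, 0.769, 1.58 and 1.41 in CVT pools 3, 4, 5 and 6. The groups overlapped, and SPF pool 7 stood highest. The log2 fold change of Tlr7 was -0.63 (SE 0.33, adjusted p = 0.726 in edgeR), and -0.25 without that pool. Nod1 was at 3.94, 3.17, 6.21 and 3.47 CPM in the SPF and 2.62, 3.11, 4.15 and 3.97 in the CVT pools, again with SPF pool 7 highest. That pool also had the largest share of late granulocyte-like cells, 12.1%, against 2.23% to 7.86% in the other pools. The log2 fold change of Nod1 was -0.21 (SE 0.23, adjusted p = 0.869 in edgeR), and 0.01 with late granulocyte-like cells left out. The part of the late granulocyte-like share in these Nod1 values was not tested. Cd14 was at 1.996, 1.55, 2.37 and 2.30 CPM in the SPF and 2.19, 3.13, 2.39 and 1.75 in the CVT pools. Its log2 fold change was 0.27 (SE 0.21), 0.08 without CVT pool 4 and 0.15 without SPF pool 2. With each class given the same weight in every pool, the log2 ratio of its mean CPM was 0.09, without edgeR's scaling. The other members tested had log2 fold changes between 0.03 (Tlr2) and 0.15 (Tlr1). The 2 scales can differ in sign. Tlr2 (4.13 against 4.23 CPM) and Myd88 (15.78 against 15.86) were lower in CVT than in SPF pools by mean CPM, but positive in edgeR. With late granulocyte-, monocyte- and dendritic-like cells left out, Ly86 was at 0.32 (SE 0.07, adjusted p = 0.412 in edgeR) and Cd14 at 0.94 (SE 0.32, adjusted p = 0.460). The remaining cells include the GMP-like cells, whose share was larger in CVT pools, and the part of that share in these values was not tested. The median over the 9 members was 0.06, against -0.01 over all genes tested.

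**Figure D3:**
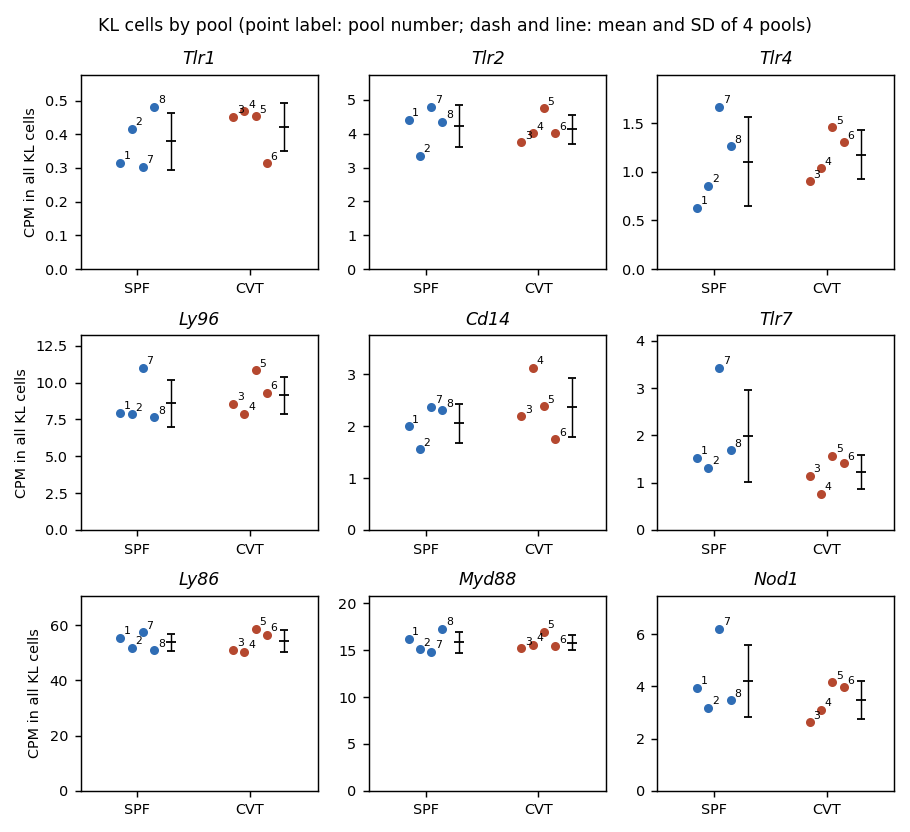
CPM of 9 members in all KL cells of each pool, numbered as in the text, with mean and SD of 4 pools per group. The SPF and CVT pools overlap in each panel, and SPF pool 7 is highest for Tlr7 (3.43 CPM) and Nod1 (6.21 CPM).

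The pools fall into 2 sets by the mouse numbers in their titles, pools 1 to 4 and pools 5 to 8, with 2 pools of each group in a set. Tlr4 was at 0.630 to 1.04 CPM in pools 1 to 4 and at 1.26 to 1.67 in pools 5 to 8, so the sets did not overlap. Its housing groups did. Of the members only Tlr4 had sets apart. The share of all genes with sets apart was not computed, so whether this is unusual for a gene cannot be told. Within the sets the log2 ratio of mean CPM of Tlr4, CVT to SPF, was 0.38 and -0.09. Cd14 had 0.58 in pools 1 to 4 and -0.18 in pools 5 to 8. The term for housing by pool set in edgeR, on its own scaling, was -0.86 for Cd14. It had an unadjusted p of 0.0325 and an adjusted p of 0.534. Cd14 was 1 of 9 members tested with an unadjusted p under 0.05 for this term. Of 13092 genes, 505 with a positive and 683 with a negative term were under it. Tlr7 had -0.57 and -0.78 and Nod1 -0.31 and -0.25, the same direction in both sets. For Ly96 the values were 0.06 and 0.11.

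Within classes 0 members were called among 41 tests, with 2 to 7 members tested in a class, and DESeq2 also called 0. Of all genes, 0 were called in LTHSC-, MPP-, LMPP-, megakaryocyte-, MEP-, GMP-, late granulocyte- and monocyte-like cells (0.0% in each), 2 in CMP-like (0.0228%) and 2 in basophil and mast-like cells (0.0291%). In GMP-like cells Ly96 was at 7.28, 6.64, 5.23 and 5.66 CPM in SPF pools 1, 2, 7 and 8 and at 8.63, 8.73, 8.04 and 8.35 in CVT pools 3 to 6. All CVT pools were above all SPF pools, as for 128 of 10348 genes (1.24%). The log2 fold change was 0.50 (SE 0.14), with an unadjusted p of 0.00236 and an adjusted p of 0.779 in edgeR. With each cluster given the same weight in every pool, the log2 ratio of mean CPM was 0.55. Cd14 in GMP-like cells had 2.18, 4.24, 3.60 and 5.54 CPM in the SPF and 5.80, 7.79, 4.88 and 5.42 in the CVT pools, and the groups overlapped (log2 fold change 0.55, SE 0.22, adjusted p = 0.808 in edgeR). These were the 2 members at an unadjusted p under 0.05 in that class, both higher in CVT mice, where 3.26% of genes were higher and 2.73% lower. GMP-like cells made up 16.4% ± 4.56 of the CVT and 9.90% ± 1.10 of the SPF pools (n = 4 each).

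Ly96 in basophil and mast-like cells was the other member at that level, with 16.8 ± 3.04 CPM in CVT and 10.4 ± 6.42 in SPF pools (log2 fold change 0.98, SE 0.36, adjusted p = 0.629 in edgeR), where 3.60% of genes were higher in CVT mice. The pools overlapped. In LTHSC-like cells 2 members could be tested, and Ly96 had a log2 fold change of 0.36 (SE 0.28) and Myd88 of -0.03. Tlr7 was at 6.06 ± 1.81 CPM in CVT and 8.93 ± 2.64 in SPF pools in LMPP-like cells, and Nod1 at 29.6 ± 3.64 and 36.7 ± 6.86 in late granulocyte-like cells, with overlapping pools for both (adjusted p = 0.947 and 0.691 in edgeR). Cluster 11, the highest in Tlr7 of the LMPP-like clusters, held 17.1% to 22.4% of the LMPP-like cells in CVT pools and 27.1% to 28.01% in SPF pools. The log2 fold change of Tlr7 in the class was -0.46, and -0.28 without SPF pool 7. With each cluster given the same weight in every pool, its log2 ratio of mean CPM was -0.37. Cluster 18, where Nod1 was highest, held 41.8% ± 5.39 of the late granulocyte-like cells in CVT and 53.3% ± 15.4 in SPF pools. The pools overlapped in this share, at 35.5% to 47.6% in CVT and 33.8% to 71.2% in SPF pools. The log2 fold change of Nod1 was -0.38. With each cluster given the same weight in every pool, its number of cells over all pools, the log2 ratio of mean CPM was -0.02. Nod1 was then at 37.1 ± 7.22 CPM in CVT and 37.5 ± 4.94 in SPF pools. The part of the cluster shares in these values was not tested. Of 110 pairs of member and population the pools were apart in 2, but only 50 pairs had enough counts for a test. Pairs with 0 UMIs in all pools, such as Tlr9 in GMP-like cells, could not come apart. The second pair was Tlr4 in MEP-like cells, at 0.0872 ± 0.0250 CPM in CVT and 0.193 ± 0.0551 in SPF pools. In that class 2.16% of the 10579 genes tested had all CVT pools below. Tlr4 was not among them, with 11 cells with a UMI.

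**Figure D4:**
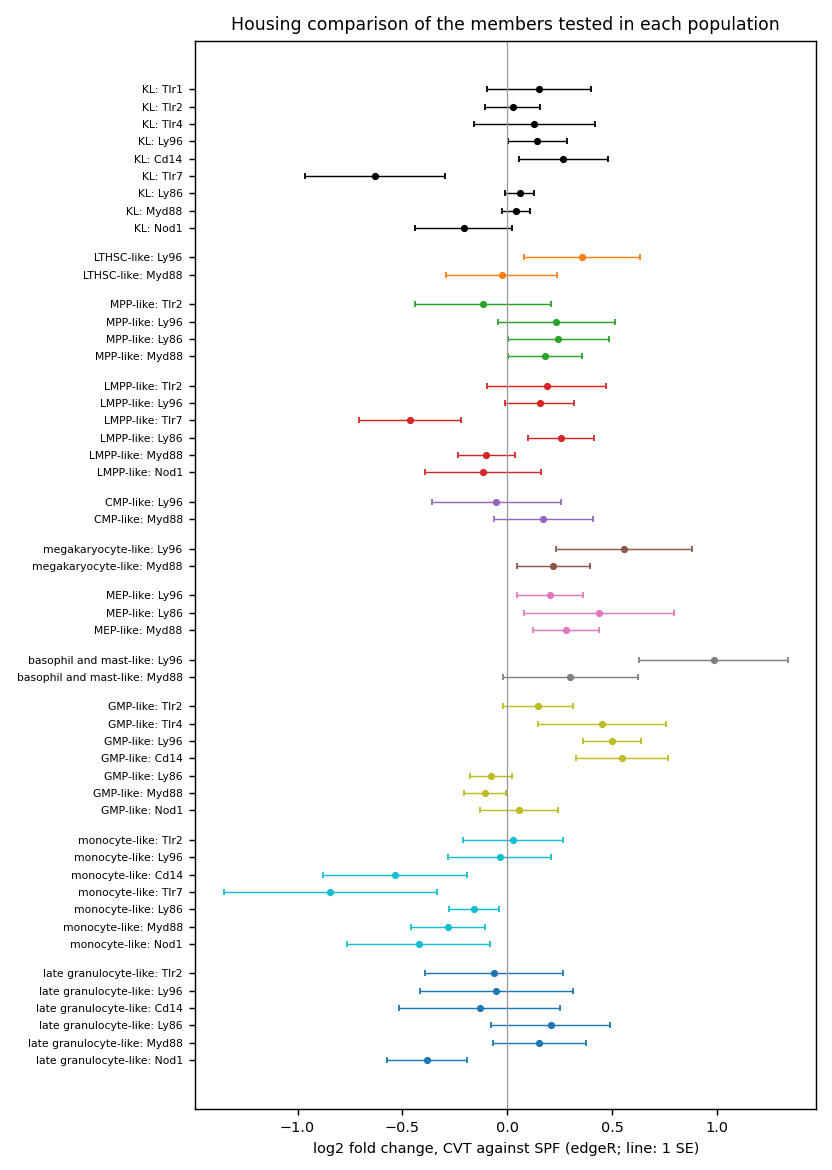
log2 fold change of CVT against SPF mice for each member that could be tested in KL cells and in 10 classes (edgeR; points, with a line of 1 SE to each side). The values run from -0.84 (Tlr7 in monocyte-like cells) to 0.98 (Ly96 in basophil and mast-like cells), and 0 of 50 passed an adjusted p of 0.05. Without SPF pool 7 the lowest value, of Tlr7 in monocyte-like cells, is -0.30.

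The value of Tlr7 in monocyte-like cells rested on few pools. With 1 pool left out it ranged from -1.18 (without SPF pool 8) to -0.30 (without SPF pool 7). Cluster 23 had 10.2 CPM of Tlr7, against 1.88 and 0.949 in clusters 6 and 17. It held 15.9% ± 12.2 of the monocyte-like cells in CVT and 29.3% ± 14.98 in SPF pools. With each cluster given the same weight in every pool, the log2 ratio of mean CPM of Tlr7 was -0.89.

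The rest of the pathway gave no call in KL cells. Of 69 genes listed, 61 were tested, 26 had a positive and 35 a negative log2 fold change, and the median was -0.03. At an unadjusted p under 0.05 there were 2 positive (3.28%, beside 2.99% of all genes) and 2 negative values (3.28%, beside 4.04%). They were Aim2 (0.13), a cytosolic DNA sensor, and Lbp (0.25), which carries lipopolysaccharide, among the positive, and Ddx58 (-0.37) and Irf7 (-0.30), of the RNA sensing and interferon branch, among the negative values (adjusted p between 0.678 and 0.699 in edgeR). The pools were apart for 1 of 61 genes with CVT above (1.64%, beside 0.901% of all genes) and 3 with CVT below (4.92%, beside 5.26%), so these shares stand near those of all genes. Aim2 had all CVT pools above the SPF pools (22.5 ± 0.337 against 21.3 ± 0.547 CPM). Ikbkb (45.1 ± 1.24 against 48.4 ± 1.28), Tbk1 (13.8 ± 0.912 against 15.4 ± 0.490), both kinases of the signalling cascade, and the RNA sensor Ifih1 (10.9 ± 0.165 against 12.2 ± 0.908) had all CVT pools below. Their log2 fold changes in edgeR, after its scaling, were -0.05, -0.11 and -0.10 (adjusted p = 0.866, 0.745 and 0.766). The genes named for their groups, by the mean CPM of all pools and with no scaling for length, were Hsp90b1, the chaperone of TLRs (311 ± 19.8 against 329 ± 26.7 CPM in CVT and SPF pools), Pycard (191 ± 5.04 against 189.8 ± 11.7), Nfkbia (55.2 ± 5.75 against 64.6 ± 6.71) and Irf3 (50.2 ± 5.05 against 53.9 ± 4.20). For Trem3 the values were 43.7 ± 10.9 and 47.0 ± 17.4, for Irak1 42.0 ± 5.999 and 45.0 ± 4.48, for Ccl3 23.1 ± 9.53 and 19.5 ± 4.69, and for Cd180, the receptor partner of MD-1, 7.95 ± 1.01 and 9.42 ± 1.27 CPM. Ly86 and Cd180 were found in the same cell in 89 LMPP-like cells, against 64.6 from the product of their shares. The values were 215 against 178 in GMP-like and 369 against 377 in monocyte-like cells. Cells were not thinned for these counts, and the part of depth and cluster mix in them was not tested.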

How the data were processed

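Bone marrow KL cells of 4 CVT and 4 SPF pools were measured by droplet RNA-seq. The authors deposited UMI counts of all cells in 1 table, not normalized, and the submitters' processing notes name Cell Ranger and mm9. Members and lists were chosen with earlier results of these data known. Cells were clustered on 1000 variable genes without members and pathway genes, 30 principal components and 30 neighbours (scikit-learn 1.9.0, leidenalg 0.10.2, igraph 0.11.9, resolution 2, seed 1), and a cluster took the name of the class with most markers among its 100 most specific genes, at least 3. No doublets were removed. Pool sums of counts went into edgeR 4.0.16 (TMM, filterByExpr, glmQLFit and glmQLFTest) at an adjusted p of 0.05, after a trial on simulated data, and with DESeq2 1.42.0 as an alternative. Other alternatives were no filter on low counts, RLE size factors, a term for the pool sets, each pool left out, cells left out or reweighted by class, resolution 1, members kept in clustering, thinning, and a filter on cells (1000 genes or more, mitochondrial UMIs up to 10%). Pools differed by more than sampling noise, and each held other mice. Floors of 3 counts cover counting error only. Named were the members, pathway genes called, with pools apart in KL cells or highest in their group, and the 3 genes most like each member found in at least 100 cells. Gene limits were looked up by symbol in GENCODE M21 (GRCm38). Python 3.11.15 and R 4.3.3 were used.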

Additional observations from a re-analysis of the deposited data

Results flagged for a closer look

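Groups of 4 pools were examined for a pool far from the other 3 in the level of each member in KL, LTHSC-like and GMP-like cells. A pool stood apart, past Dixon's 95% critical value, in 3 of 44 groups, and chance flags about 1 in 20 groups. Tlr1 in all KL cells was lowest in CVT pool 6, at 0.314 CPM. Ly96 in all KL cells was highest in SPF pool 7, at 11.002 CPM. Myd88 in LTHSC-like cells was highest in CVT pool 5, at 23.8 CPM.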

How the results depend on the processing

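The count of members called stayed at 0 in KL, LTHSC-like, GMP-like and the other classes, and that of pathway genes in KL cells at 0, under 62 alternatives of these counts, and 0 members were called for the difference between pool sets with either scaling. Leaving out each pool in turn gave 0 calls each time. Of 9 members, the class with the highest level was the same for 5 with the members and pathway genes kept in the clustering and for 5 with thinned cells. Of 270 recomputed log2 fold changes of 20 values, 258 kept their direction, 12 turned and 0 passed the threshold. The cause of the turns was not tested. In KL cells Ly86 turned to -0.10 with each class given the same weight in every pool, its number of cells over all pools. Weighted values are log2 ratios of mean CPM, so this turn also holds a change of scale from edgeR. Nod1 in KL cells turned to 0.0123 without late granulocyte-like cells and 0.14 without late granulocyte-, monocyte- and dendritic-like cells. With 1 pool left out, Tlr2 in KL cells ranged from -0.071 to 0.101 (below 0 without SPF pool 2 or CVT pool 5), Tlr4 from -0.0298 (without SPF pool 1) to 0.35, Nod1 from -0.322 to 0.0422 (without SPF pool 7), Ly86 in GMP-like cells from -0.20 to 0.00208 (without CVT pool 4), and Myd88 in LTHSC-like cells from -0.23 to 0.0654 (above 0 without SPF pool 2 or CVT pool 3, 4 or 6). The weighting of clusters within a class was chosen after seeing the data. The term for the pool sets changed none of the counts of member or pathway calls. Single pools were not paired, since the groups share no replicate numbers. The counts of Tlr9 and Tlr1 limit what could be detected for them.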
